A study of Mus musculus with 20 samples.

Results

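Genes of plasma cell differentiation and survival were followed in mouse diaphragm 12 weeks after asbestos or carbon nanotube fibers had been placed in the pleural cavity. The 9 genes were Prdm1, Irf4, Xbp1, Pou2af1, Igj, Derl3, Tnfrsf17, Tnfsf13b, and Sdc1, taken as the noncontrol probes that carry these gene names in the scanner files. Each had 1 probe, out of 55681 noncontrol probes with 34797 gene names, and immunoglobulin chain probes were kept apart. On each of the 20 arrays all 9 probes were well above background. The mice were female C57Bl/6 animals, injected at an age of 8 weeks, with 4 mice per group and 1 array per mouse. The control group received 100 μL of 0.5% BSA/saline. SFA (shortened amosite asbestos, 3.1% of fibers at 5 μm or more) and LFA (amosite enriched for long fibers, 50.3% of them over 15 μm) were given at 25 μg per mouse. Carbon nanotubes, short in NTS and long in NTL, were given at 5 μg per mouse, all in the same vehicle. The tissue was a whole mixture of muscle, pleural lining, and lesion. A change in the number of cells of a type and a change in RNA per cell therefore cannot be told apart.

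Plasma cells are B lymphocytes that have turned into antibody factories. IRF4 and BLIMP-1 (the product of Prdm1) shut down the B cell program and start that of the plasma cell, XBP1 enlarges the endoplasmic reticulum for secretion, and OBF-1 (the product of Pou2af1) drives immunoglobulin transcription with octamer-binding factors. The J chain (Igj, now Jchain) links the subunits of polymeric IgM and IgA, and Derlin-3 (Derl3) helps to clear misfolded proteins from the endoplasmic reticulum. BCMA (Tnfrsf17) is a survival receptor for the cytokines APRIL and BAFF (Tnfsf13b), and syndecan-1 (Sdc1, or CD138) is a proteoglycan found on plasma cells and on many epithelial cells, including hepatocytes.

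The 3 largest changes in mice with long fibers were read by the following probes of Igj, Derl3, and Tnfrsf17. Their last 30 bases are shown in the strand of the transcript, in lower case throughout because no shorter motif matters within them. The Igj probe lies at chr5:88949919-88949978 on the minus strand, the Derl3 probe at chr10:75358503-75358562 on the plus strand, and the Tnfrsf17 probe at chr16:11320045-11320104 on the plus strand, in the coordinates of the files (mm9). The probes begin at base 957 of the Igj transcript, base 1152 of the Derl3 transcript, and base 695 of the Tnfrsf17 transcript, and whether these bases are coding was not annotated here.
Igj: gtgtagagaaaacagccaatgaacacagga
Derl3: attccttccatttgccttgtagcggaaggc
Tnfrsf17: ctgctttgagaaccttctgtcaggagagct

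The 250 bases before the start of each member were searched for motifs of this pathway on both strands. RefSeq promoters (GRCm38.p6) were at hand for all 9 genes, with 2 start sites for Tnfsf13b and thus 10 promoters. The motifs were the octamer (ATGCAAAT), the UPRE core (TGACGTG), the ERSE, the EICE, and a PRDM1 core. The Derl3 promoter held the ERSE, the endoplasmic reticulum stress element, which 0.113% of 32851 promoters held. The Pou2af1 promoter held the UPRE core, present in 1.65% of promoters, and the downstream Tnfsf13b promoter held the PRDM1 core, present in 0.941%. The octamer (1.60% of promoters) and the EICE (2.30%) were in none of the 10 windows. The 3 matches are printed here with their flanks, in the strand of the gene and with the match in capitals. The Derl3 window is chr10:75893237-75893266, the Pou2af1 window chr9:51213618-51213647, and the Tnfsf13b window chr8:10006607-10006632, all on the plus strand of GRCm38.p6. A match is a description of the letters, and binding was not measured.
Derl3: tctacCGTGGGACTTCCCCATTGGctagcc
Pou2af1: ggaggatgtgaTGACGTGgcccctctcagc
Tnfsf13b: tacaaaaactGAAAGTGAAAtgcgga

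The arrays correlated with each other between 0.865 and 0.986, and their 75th percentile signal ran from 292 to 991. Levels below are log2 signals minus this percentile of the same array, so a value of 0 is the 75th percentile, and levels of different probes are not compared. Skeletal muscle markers were measured for 10 of 10 genes, as the labelled tissue calls for. Liver transcripts varied strongly between arrays. The mean of 6 liver markers, relative to the control mean, reached 8.55 on NTS 3 and 8.53 on NTS 4, 7.48 on LFA 3, 7.10 on LFA 1, and 6.93 on SFA 2, and lay between −3.52 and 4.50 on the other 15 arrays. Values without these 5 arrays, a setting chosen after seeing the data, are given where they change a result.

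All 9 genes had higher means in LFA and in NTL than in control. A gene was called when limma gave a Benjamini-Hochberg adjusted p under 0.05 over the 36920 tested probes and the log2 change was at least 1. Compared with control, 5 of the 9 genes were called higher in LFA, against 2.21% of all tested probes, and 6 of 9 in NTL, against 3.64%. None (0 of 9) was called lower in LFA or in NTL. The genes called in both were Igj, Derl3, Tnfrsf17, Prdm1, and Irf4, and Pou2af1 was called in NTL. The median change over the 9 genes was 1.67 in LFA and 1.94 in NTL, while that of all tested probes was −0.28 and −0.25. Both comparisons share the control arrays. In SFA and NTS limma called 0 of the 9 genes and 0% of the tested probes, and 1 gene in each had an unadjusted p under 0.05 (Prdm1 in SFA and Sdc1 in NTS).

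**Figure D1:**
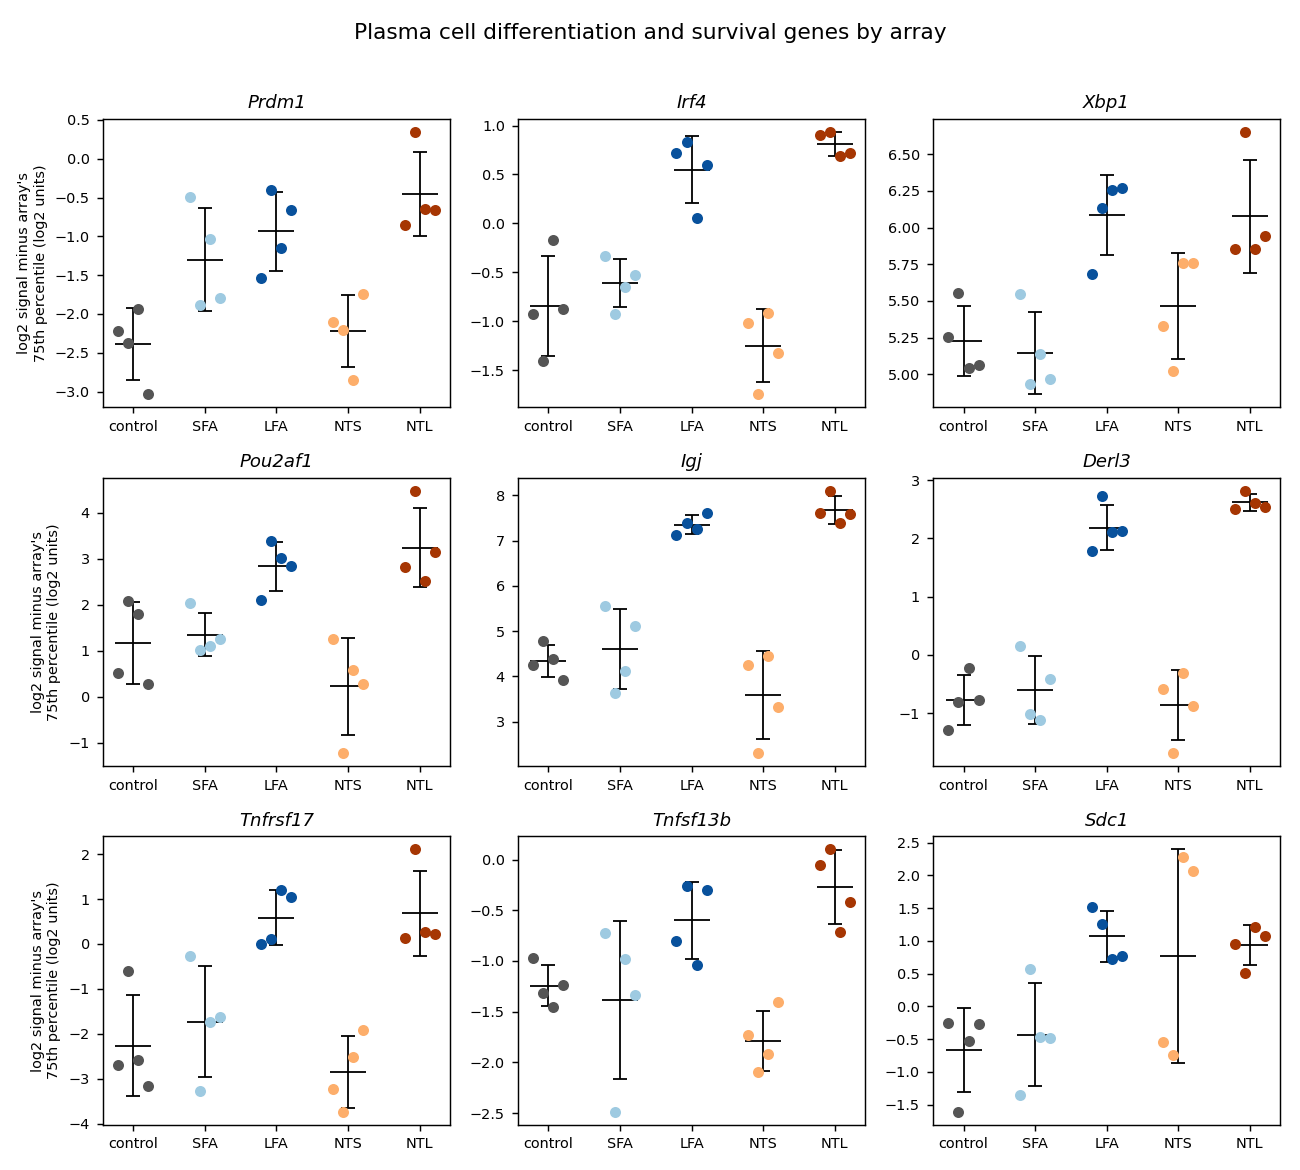
Level of the 9 genes on each array. The y axis gives the log2 signal minus the 75th percentile of the array, points are the 4 mice of each group, and bars give the mean and SD. Igj and Derl3 show the LFA and NTL arrays apart from all others, while Sdc1 is high on 2 of the 4 NTS arrays, at 2.28 and 2.07.

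Irf4, the first of the transcription factors, rose with both kinds of long fiber. Its levels in control were −0.93, −1.41, −0.17, and −0.87. In LFA they were 0.72, 0.83, 0.06, and 0.59, and in NTL 0.91, 0.93, 0.69, and 0.72. Every mouse with long fibers lay above every control mouse. The change was 1.39 ± 0.27 (log2, SE) in LFA, with an adjusted p of 0.00838 by limma, and 1.65 ± 0.27 in NTL, with an adjusted p of 0.00120. In SFA the levels ran from −0.93 to −0.33 and in NTS from −1.75 to −0.92, and both ranges overlapped with control. When only control and LFA arrays were fitted, the LFA change was no longer called (adjusted p = 0.0661).

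Prdm1, which encodes BLIMP-1, was at −2.22, −2.37, −1.93, and −3.03 in control. It rose to −1.54, −0.40, −1.14, and −0.66 in LFA and to −0.86, 0.35, −0.65, and −0.66 in NTL. The groups did not overlap, and NTL 2 was the highest array of all. The change was 1.45 ± 0.38 in LFA (adjusted p by limma 0.0367) and 1.94 ± 0.38 in NTL (0.00436). Prdm1 had the smallest unadjusted p of the 9 genes between SFA and control. Its SFA levels were −0.49, −1.89, −1.04, and −1.80, a change of 1.09 ± 0.38 with an unadjusted p of 0.00961 and an adjusted p of 0.998 by limma, so that it was not called. With normexp background correction the LFA change fell to 0.86 and was not called (adjusted p = 0.0592), and without LFA replicate 2 it was 1.27 with an adjusted p of 0.102. Leaving out control replicate 1, 2, or 4 or LFA replicate 3 or 4 also ended the call.

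Xbp1 changed by less than 2-fold. Control levels were 5.25, 5.55, 5.05, and 5.06. LFA levels were 5.68, 6.13, 6.25, and 6.27, and NTL levels 5.86, 6.65, 5.85, and 5.94. No array with long fibers overlapped with control, and the change was 0.85 ± 0.25 in LFA (adjusted p by limma 0.0582) and 0.85 ± 0.25 in NTL (0.0458). Xbp1 was therefore not called. Quantile normalization, which moved the median change of all probes to −0.08 in LFA and −0.09 in NTL, gave Xbp1 changes of 1.15 and 1.29 with adjusted p-values of 0.00273 and 0.000526 by limma. The probe begins at base 1740 of the Xbp1 transcript and does not tell the spliced from the unspliced transcript.

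Pou2af1 varied widely within groups. Control levels were 0.52, 2.07, 1.79, and 0.28, with an SD of 0.90. LFA levels were 2.10, 3.38, 3.01, and 2.85, and NTL levels 2.83, 4.48, 2.53, and 3.14. The lowest LFA array lay just above the highest control array. The change of 2.08 ± 0.53 in NTL was called, with an adjusted p of 0.0233 by limma, and the change of 1.67 ± 0.53 in LFA was not (0.0761). In NTS the levels were 1.25, −1.22, 0.59, and 0.28. The NTL call was lost without NTL replicate 2 (change 1.67, adjusted p = 0.0728), without NTL replicate 4, without control replicate 1 or 4, and with slide as a block (0.0884). The LFA change passed without NTS replicate 2 (adjusted p = 0.0480) and with normexp background correction (0.0494).

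Igj, the J chain, had the largest change of the 9 genes in LFA. Control arrays were at 4.25, 4.78, 4.38, and 3.92. LFA arrays were at 7.14, 7.40, 7.25, and 7.62, and NTL arrays at 7.60, 8.11, 7.39, and 7.59. The lowest array with long fibers was more than 2 log2 units above the highest control array. The change was 3.02 ± 0.44 in LFA, an 8.10-fold increase with an adjusted p of 0.00102 by limma, and 3.34 ± 0.44 in NTL, a 10.1-fold increase with an adjusted p of 0.000201. The groups with short fibers overlapped with control. SFA arrays were at 5.56, 3.64, 4.11, and 5.12, and NTS arrays at 4.26, 2.31, 4.45, and 3.34. Of all 36920 tested probes, 0.745% had a larger change than Igj in LFA.

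Derl3, the second gene of the secretory machinery, rose by a similar amount. Its levels were −1.28, −0.81, −0.23, and −0.78 in control. They were 1.78, 2.72, 2.10, and 2.12 in LFA and 2.50, 2.82, 2.60, and 2.55 in NTL. NTL mice were nearly alike, with an SD of 0.14. The change was 2.96 ± 0.33 in LFA (7.79-fold, adjusted p by limma 0.000114) and 3.40 ± 0.33 in NTL (10.5-fold, 2.39e-05). These adjusted p-values were the smallest of the 9 genes in each comparison. Leaving out any single array kept the LFA change between 2.78 and 3.14 and the NTL change between 3.23 and 3.58. Within each of the 3 slides that held both groups, LFA exceeded control by 2.83 to 2.95.

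Tnfrsf17, the receptor BCMA, rose with a wider spread between mice. Control arrays were at −2.70, −0.61, −2.58, and −3.17. LFA arrays were at 0.01, 0.11, 1.20, and 1.04, and NTL arrays at 0.13, 2.11, 0.27, and 0.21. Control 2 stood high among the controls, and NTL 2 stood far above the other 3 NTL arrays. The change was 2.85 ± 0.64 in LFA (adjusted p by limma 0.0205) and 2.95 ± 0.64 in NTL (0.00952). In SFA the levels ran from −3.28 to −0.27. Without control replicate 1 the LFA change was 2.71 and not called (adjusted p = 0.0581), as was the case without control replicate 4 or LFA replicate 4. The NTL change remained called with any single array left out, between 2.47 and 3.50.

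Tnfsf13b, the ligand BAFF, was not called against control in any group. Control levels were −0.97, −1.32, −1.46, and −1.24. LFA levels were −0.80, −0.26, −1.04, and −0.30, and NTL levels −0.05, 0.10, −0.72, and −0.42. LFA overlapped with control and NTL did not. The change was 0.65 ± 0.33 in LFA (adjusted p by limma 0.234) and 0.98 ± 0.33 in NTL (0.0747), and neither was called. SFA 2 was the lowest of all arrays, at −2.49.

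Sdc1 was high with long fibers and also on 2 arrays with short nanotubes. Control levels were −0.25, −1.61, −0.52, and −0.27. LFA levels were 1.52, 1.26, 0.72, and 0.78, and NTL levels 0.96, 0.52, 1.21, and 1.08. Both groups with long fibers lay above all controls, yet the changes of 1.73 ± 0.59 and 1.60 ± 0.59 were not called (adjusted p by limma 0.0925 and 0.104). The NTS arrays fell into 2 low values, −0.54 and −0.74, and 2 that were the highest of all 20 arrays, 2.28 and 2.07. These last were NTS 3 and NTS 4, where liver markers were also highest. The change in NTS was 1.43, and 0.022 without the 5 arrays rich in liver transcripts. SFA 2, with a liver level of 6.93, had the highest Sdc1 of its group at 0.58. LFA 2 and LFA 4 had liver levels of −2.45 and −2.28, below the control mean, and Sdc1 levels of 1.26 and 0.78. LFA 1 and LFA 3, with liver levels of 7.10 and 7.48, had the highest and the lowest Sdc1 of their group, 1.52 and 0.72. Without the 5 arrays rich in liver transcripts, Sdc1 was called in LFA (1.68, adjusted p by limma 0.0321) and NTL (1.60, 0.00829). With the liver level as a covariate in place of this, also chosen after seeing the data, it was not called (1.40 with an adjusted p of 0.0997 in LFA and 1.25 with 0.115 in NTL).

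**Figure D2:**
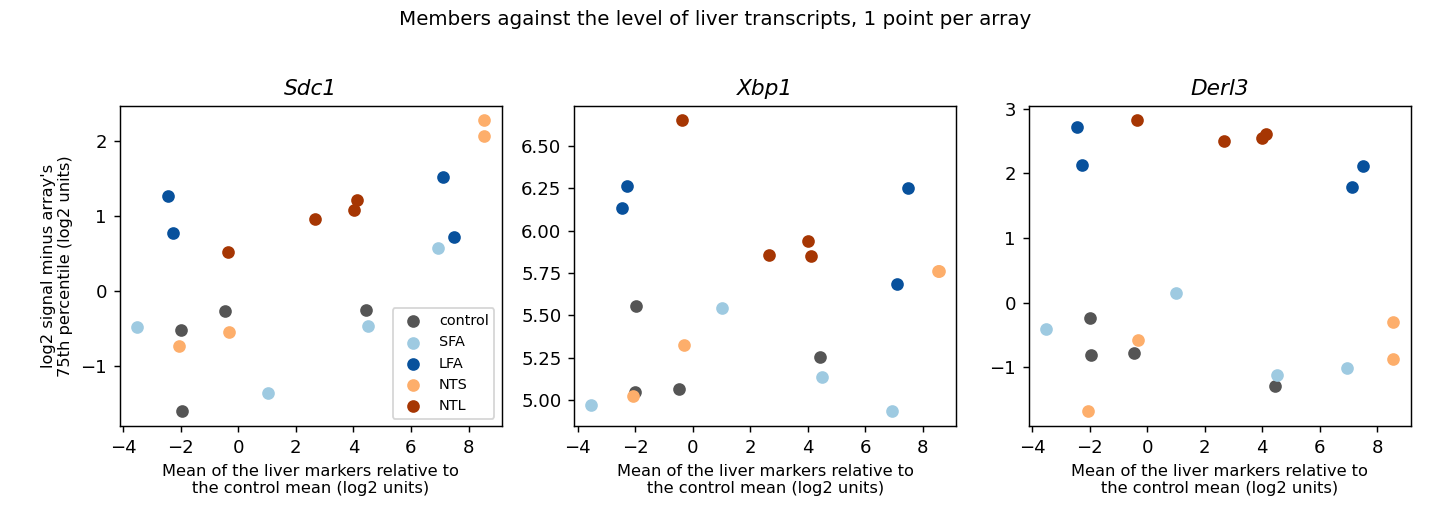
Sdc1, Xbp1, and Derl3 on each of the 20 arrays against the mean of 6 liver markers relative to the control mean (x axis, log2 units). The y axis gives the level as the log2 signal minus the 75th percentile of the array. NTS 3 and NTS 4, at 8.55 and 8.53 on the x axis, carry the highest Sdc1 of all arrays, while Derl3 is at −0.31 and −0.87 on them.

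**Figure D3:**
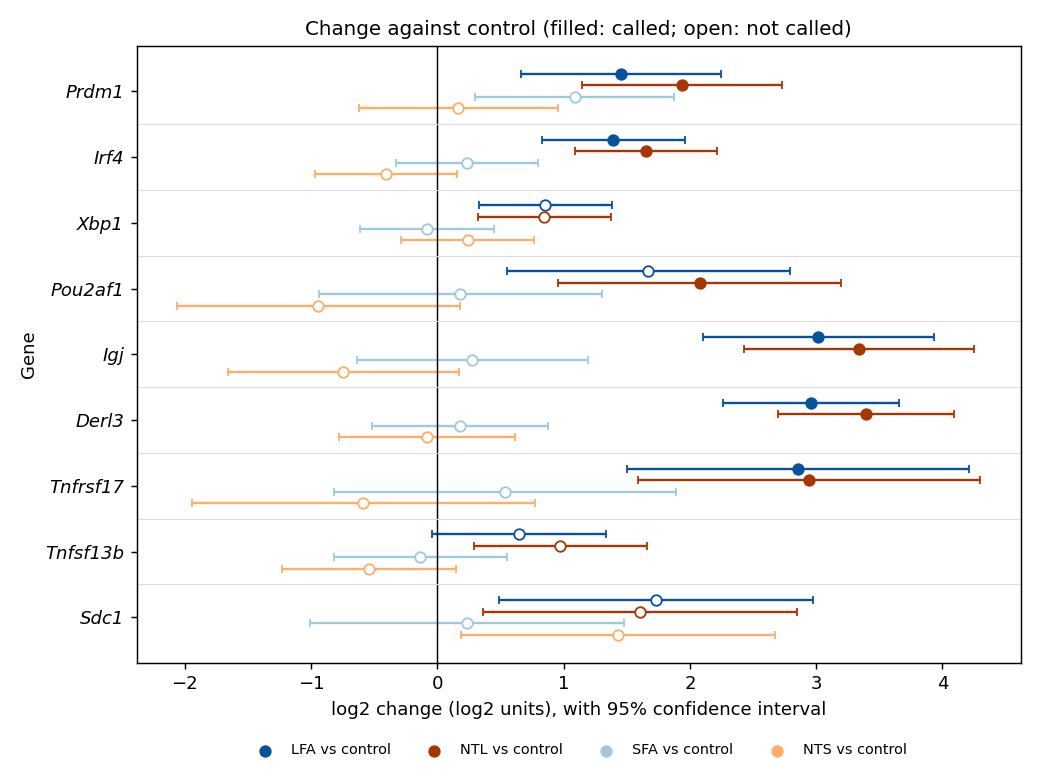
log2 change of each gene against control in LFA, NTL, SFA, and NTS, with 95% confidence intervals from limma. Filled points were called and open points were not. The 5 filled LFA points run from 1.39 to 3.02 and the 6 filled NTL points from 1.65 to 3.40, and all SFA and NTS points are open.

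No array of LFA overlapped with control for 8 of the 9 genes, all but Tnfsf13b, where 4.56% of all probes had every LFA array above every control array. For NTL this held for 9 of 9, against 6.36% of all probes. In SFA it held for Prdm1 alone, against 0.55%, where the lowest SFA array (−1.89) was close to the highest control array (−1.93). From high to low, the group means of Igj, Irf4, Tnfrsf17, Pou2af1, and Derl3 came in the order NTL, LFA, SFA, control, and NTS. For Prdm1 the order was NTL, LFA, SFA, NTS, and control. Of the neighbours in these orders, NTL and LFA, SFA and control, and control and NTS gave no call by limma, while LFA and SFA were called apart for Igj, Derl3, and Irf4. SFA and NTS, neighbours for Prdm1, were not tested.

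The arrays lay on 3 slides, and the groups were spread unevenly over them. Slide 1 held no SFA or NTL array, and slide 3 no NTS array. NTL and NTS met on slide 2 alone, so their difference cannot be fully told apart from slide and scan day. When slide entered the model as a block, 4 of the 9 genes were called in LFA and 5 in NTL. Of all 36920 tested probes, 611 were then called higher in LFA and 848 in NTL. The main fit called 816 and 1344 higher. The Igj change was then 2.98 in LFA and 3.33 in NTL, and the Derl3 change 2.90 and 3.29. Within the 3 slides that held LFA and control arrays, Igj differed by 2.62 to 3.51, and the smallest difference of any of the 9 genes was 0.28, for Xbp1. Within the 2 slides that held NTL and control arrays, Igj differed by 3.09 to 3.32, and the smallest difference was 0.45, again for Xbp1.

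Long and short fibers were compared within each material, at equal dose. LFA and SFA came from the same batch of amosite. The short nanotubes were bought from a company and the long ones were made in a university laboratory. For nanotubes, length and source therefore cannot be told apart. Between LFA and SFA, 3 of the 9 genes were called higher, against 1.03% of all tested probes. They were Derl3 (2.78 ± 0.33, adjusted p by limma 0.000394), Igj (2.74 ± 0.44, 0.00321), and Irf4 (1.16 ± 0.27, 0.0400). Tnfrsf17 differed by 2.32 ± 0.64 with an adjusted p of 0.109, and the smallest difference was that of Prdm1 at 0.37 ± 0.38, with a 95% interval of −0.42 to 1.16. The LFA arrays lay above all SFA arrays for 7 genes, against 3.14% of all probes, with Prdm1 and Tnfsf13b as the exceptions. The Irf4 call did not hold with slide as a block (adjusted p = 0.0661), and without LFA replicate 2 the adjusted p was 0.164. It was also lost without control replicate 1 or 4, any SFA array, LFA replicate 1 or 4, or any NTL array, and without the 5 arrays rich in liver transcripts (1.22, adjusted p by limma 0.124). Without SFA replicate 1, Tnfrsf17 differed by 2.80 and was called (0.0490).

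Between NTL and NTS, 7 of 9 genes were called higher, against 4.92% of all tested probes. The changes were 4.08 ± 0.44 for Igj (16.96-fold), 3.53 ± 0.64 for Tnfrsf17, 3.48 ± 0.33 for Derl3, 3.02 ± 0.53 for Pou2af1, 2.06 ± 0.27 for Irf4, 1.77 ± 0.38 for Prdm1, and 1.52 ± 0.33 for Tnfsf13b. Adjusted p-values by limma ran from 7.35e-06 for Derl3 to 0.00715 for Tnfsf13b. Xbp1 differed by 0.61 ± 0.25 (adjusted p 0.140) and Sdc1 by 0.17 ± 0.59 (0.880). Every NTL array lay above every NTS array for 8 genes, all but Sdc1, against 7.66% of all probes. With slide as a block, Prdm1 (1.44, adjusted p = 0.117) and Tnfsf13b (1.46, 0.0807) were not called. Without the 5 arrays rich in liver transcripts, which left NTS 1 and NTS 2, Sdc1 differed by 1.58 and was called (0.0201). Slide 2 alone held both NTL and NTS arrays, 1 of NTL and 2 of NTS. There Igj differed by 4.32 and Sdc1 by 1.60. Within the 2 slides with LFA and SFA arrays, Igj differed by 2.54 to 2.78 and Prdm1 by −0.35 to 1.02.

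**Figure D4:**
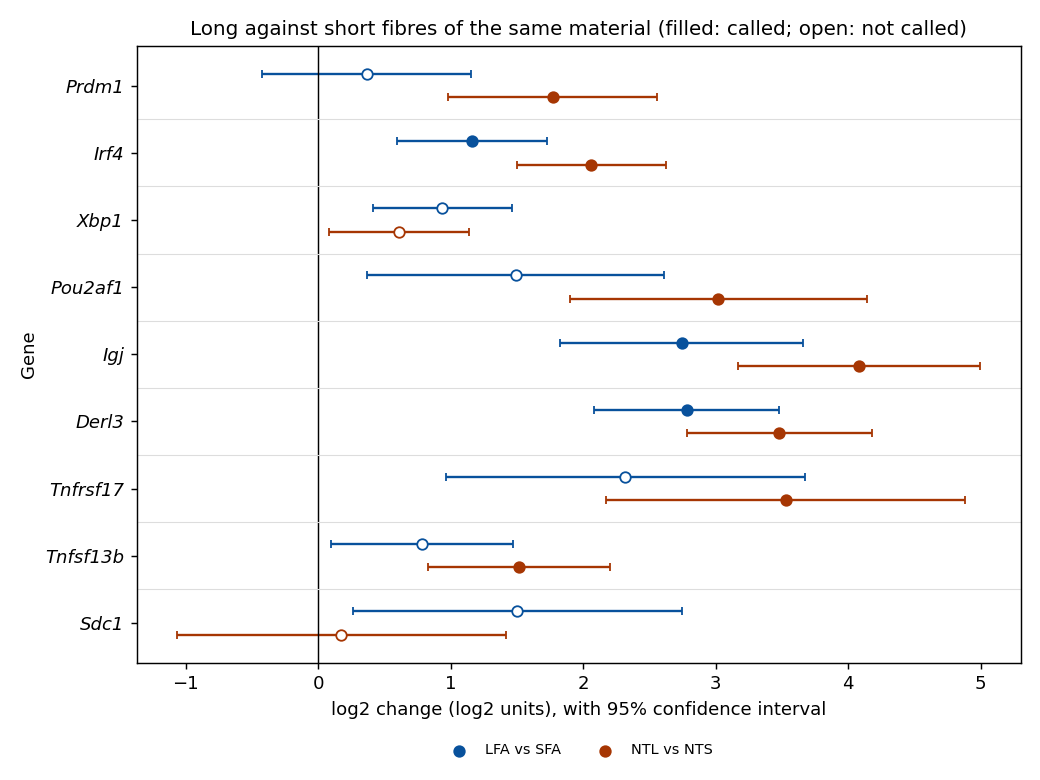
log2 difference between long and short fibers of the same material for each gene, with 95% confidence intervals from limma. Filled points were called, which were 3 for LFA against SFA and 7 for NTL against NTS. Igj differs by 2.74 in asbestos and 4.08 in nanotubes, and Sdc1 by 1.501 and 0.17.

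The difference between these length effects, which for nanotubes include the source, was tested as well. It was called by limma for 0 of 9 genes and 0% of probes. Unadjusted p-values were under 0.05 for Prdm1 (1.40, 95% interval 0.29 to 2.52), Igj (1.34, 0.05 to 2.63), and Irf4 (0.90, 0.10 to 1.70), each with an adjusted p of 0.9998. Between LFA and NTL, which differ in dose as well as material, limma called 0 of 9 genes and 0% of probes, with 0 genes at an unadjusted p under 0.05. The differences ran from −0.48 for Prdm1 (95% interval −1.27 to 0.31) to 0.13 for Sdc1 (−1.11 to 1.37), and that of Igj was −0.32 (−1.24 to 0.59). The intervals of Prdm1, Igj, and Sdc1 include differences of 2-fold between the kinds of long fiber.

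How the members moved within groups was described by correlating their deviations from group means over the 20 arrays. Igj moved with Derl3 (r = 0.79), Pou2af1 (0.75), and Tnfrsf17 (0.65). Xbp1 moved most with Tnfrsf17 (0.87), and NTL 2 was the highest array for both. Between Sdc1 and the other 8 genes r lay between −0.36 and 0.23. These are descriptions, since the arrays share slides and a common scaling.

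Similar profiles were searched among named genes, with the members and immunoglobulin chains left out. Igj and Derl3 themselves correlated at a Pearson r of 0.970 over the 20 arrays. Outside the members, the profile most like that of Igj was that of Oosp1 (Pearson r = 0.991). It was followed by Bhlha15 (0.976), which encodes MIST1, a regulator of secretory cells, and Gpr160 (0.968). For Derl3 the closest were Cd33 (0.974), Oosp1 (0.974), and Fut1 (0.967), and for Tnfrsf17 they were Eaf2 (0.980), Cd48 (0.979), and Srgn (0.976). Pou2af1 was closest to Map4k1 (0.975), Tnfrsf13b (0.972), which encodes the related receptor TACI, and Cd40 (0.966). Irf4 was closest to Cytip (0.968), Csf2rb2 (0.963), and Csf2rb (0.962), and Prdm1 to Hoxb3 (0.946), Arhgap11a (0.940), and Cep192 (0.937). Xbp1 was closest to Bin3 (0.937), Serp1 (0.935), and Steap1 (0.928), and Tnfsf13b to Tgfbr2 (0.955), Zfpm2 (0.951), and Lox (0.939). Sdc1 was closest to F7 (0.951), Alcam (0.949), and Arg1 (0.940). F7 encodes a clotting factor and Arg1 an enzyme of the urea cycle, both made in liver, among other sites for Arg1. The source of the Sdc1 transcripts was not tested. The values of r in this paragraph include the differences between groups. For deviations from group means, r with these closest genes ran from 0.70 (Irf4 with Csf2rb) to 0.97 (Sdc1 with F7). None (0) of the 7 tested immunoglobulin chain probes was among the 50 closest probes of any member, counted over all 36768 probes searched. With only 7 such probes, this count does not set the members apart from immunoglobulin.

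Other genes of the pathway were counted in the same fit. Of 15 tested survival and niche genes, 3 were called higher in LFA (20%) and 5 in NTL (33.3%), and 0 lower. Of all tested probes, 2.21% were called higher in LFA and 3.64% in NTL. Il6, a cytokine that supports plasma cells, was at −5.65 ± 0.35 (SD, n = 4) in control, −1.95 ± 0.57 in LFA, and −1.59 ± 0.99 in NTL, changes of 3.70 and 4.06. Its probe was well above background on 1 of 4 control arrays and on all 4 arrays of LFA and of NTL. Il10 was well above background on 0 of 4 control arrays and passed the filter through the groups with long fibers. It was at least 2.25-fold higher in LFA (adjusted p by limma 0.00556) and at least 2.81-fold higher in NTL (0.000814). Tnfrsf13b changed by 1.72 in LFA (adjusted p by limma 0.0521, not called) and by 1.95 in NTL (0.0209, called). The other calls, named because they were few, were Cd86 in LFA (1.54) and NTL (1.503) and Cd80 in NTL (1.12). The median of the list was 0.10 in LFA and 0.26 in NTL.

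Of 38 tested genes of the XBP1 and endoplasmic reticulum secretory program, 1 was called in LFA and 1 in NTL, in each case Creld2, which encodes a stress-induced chaperone-like protein. This is 2.63% of the list, near the 2.21% and 3.64% of all tested probes. Creld2 rose by 1.36 ± 0.28 in LFA (adjusted p by limma 0.0117) and 1.54 ± 0.28 in NTL (0.00243). Edem1 changed by 1.52 and 1.43 and Ell2, an elongation factor used in immunoglobulin secretion, by 1.37 and 1.33, and neither was called. There were 31 of 38 genes with a higher mean in LFA and 32 in NTL, with medians of 0.43 and 0.44.

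Among 11 other plasma cell genes, 1 was called in LFA (9.09%) and 3 in NTL (27.3%), against 2.21% and 3.64% of all tested probes. Mzb1, a chaperone of immunoglobulin assembly, rose from 1.22 ± 0.32 in control to 3.66 ± 0.49 in LFA and 4.05 ± 0.46 in NTL, a change of 2.44 and 2.83 with adjusted p-values of 0.00578 and 0.000907 by limma. Itga4 (1.10 and 1.37) and Slamf7 (0.81 and 1.58) were called in NTL. Of 19 B cell identity genes, 1 was called in LFA (5.26%) and 2 in NTL (10.5%), against the same shares of all tested probes. The called genes were Cd72 (2.28 and 2.71), called in both, and Vpreb3 (1.39 and 1.72), called in NTL alone. Blk, the third gene by the naming rule, went the other way (−1.34 and −0.76) and was not called. Its probe was well above background on 3 of 4 control arrays, 1 of 4 LFA arrays, and 3 of 4 NTL arrays. The medians of the B cell list were 0.34 in LFA and 0.34 in NTL. In SFA and NTS, 0 genes of these 4 lists were called by limma.

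**Figure D5:**
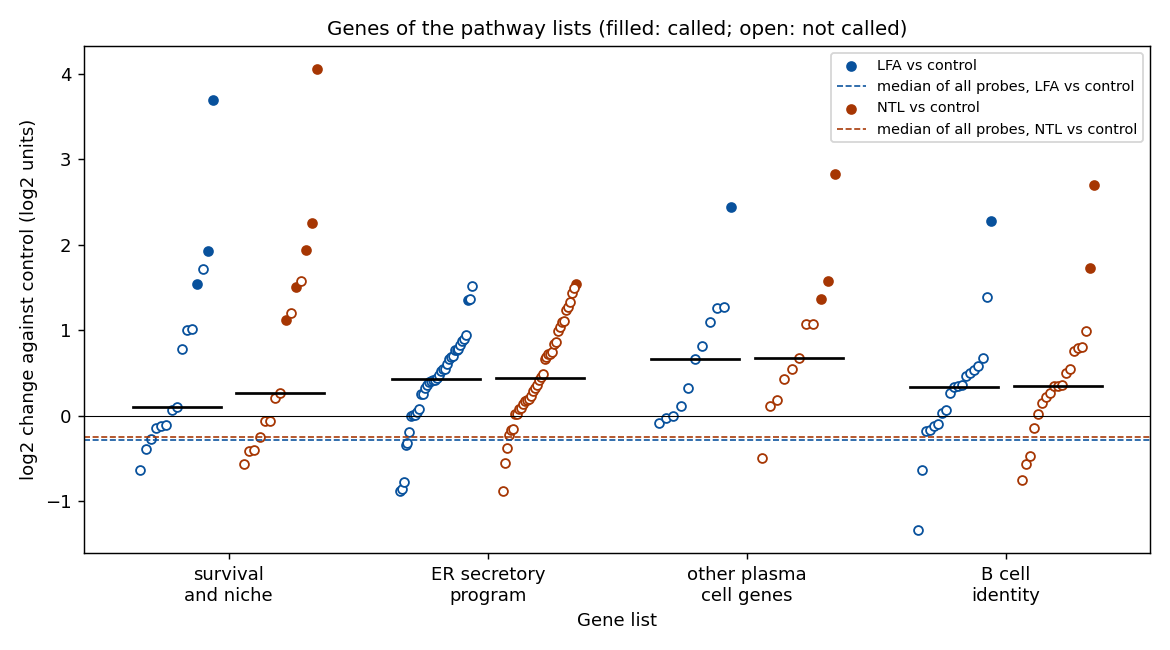
log2 change against control of each tested gene in 4 lists, in LFA and NTL. Filled points were called, black bars are list medians, and dashed lines are the medians of all tested probes, at −0.28 in LFA and −0.25 in NTL. The secretory list has a median of 0.43 in LFA and 0.44 in NTL with 1 filled point each.

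Markers of other cell types were counted in the same fit, and the calls differed between cell types. Of all 36920 tested probes, 2.21% were called higher in LFA and 3.64% in NTL, while 646 and 1167 were called lower. Macrophage markers were called higher for 5 of 8 genes in LFA and 5 of 8 in NTL, and their mean level relative to control was 0.99 to 1.95 on LFA arrays and 1.70 to 1.96 on NTL arrays, against −0.17 to 0.12 in control. Of 7 tested immunoglobulin chain probes, 1 was called higher in LFA and 3 in NTL, and 4 of 7 had a higher mean in LFA and 5 of 7 in NTL. A probe of Igh-VJ558 changed by 3.89 in LFA and 5.45 in NTL and was called in both. Another probe of Igh-VJ558 changed by 3.03 in LFA (adjusted p by limma 0.0573, not called) and 3.97 in NTL (0.0105, called). Both were well above background on 3 of 4 control arrays. The other call in NTL was a probe of Igkv4-53, which was well above background on 0 of 4 control arrays. It was so on 2 SFA arrays, 1 NTS array, and all 4 arrays of LFA and of NTL. It thus passed the filter mainly through the groups with long fibers, and no fold is given because control was at background. Igkc, well above background on 2 of 4 control arrays, changed by −0.30 and −0.41 without a call. T cell markers were called for 0 of 8 genes in LFA and 1 in NTL, dendritic cell markers for 0 of 5 and 3, granulocyte markers for 1 of 6 and 0, mesothelial markers for 0 of 7 and 0, fibroblast markers for 1 of 6 and 4, endothelial markers for 0 of 4 and 0, and adipocyte markers for 0 of 5 higher in each, with 2 lower in NTL. Skeletal muscle markers were called lower for 2 of 10 genes in LFA and 5 in NTL. Liver markers were called for 0 of 6 in each, with levels from −1.999 to 4.44 in control, −2.45 to 7.48 in LFA, and −0.37 to 4.12 in NTL. The part of each of these cell types in the changes of the 9 genes was not tested.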

How the data were processed

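RNA of 20 diaphragms was labeled with Cy3 and hybridized to Agilent mouse arrays by the authors, and the deposited files of each array hold the intensity of every spot after background subtraction by Feature Extraction 10.7.3.1. Group means of log2 values, normalized by the authors in GeneSpring, were also deposited and served as an alternative without a test. Outlier spots (92 to 204 per array) were left out, 0 spots were saturated, and 59305 noncontrol spots were averaged into 55681 probes. From each log2 intensity the array's 75th percentile was subtracted. Probes well above background on at least 4 of 20 arrays were tested (36920).

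A mean per group was fitted to all arrays with limma 3.58.1 (R 4.3.3). Calls needed an absolute log2 change of 1 and a Benjamini-Hochberg adjusted p under 0.05. Errors are SE unless SD is stated, and intervals are 95%. The number of arrays limits the precision. Steps were tested on simulated data. Files were read and plotted with Python 3.11.15. Members and lists were chosen with earlier results of these data known. Genes named from a list were the 3 (pathway) or at most 2 (marker) tested genes with the largest absolute mean of the LFA and NTL changes. Genes with the most similar profile were the 3 named genes with the highest Pearson r, members and immunoglobulin chains left out. Of the probes, 27235 accessions were found in the GRCm38.p6 table, used for names only. Sequences are from the files and from RefSeq.

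Alternatives were quantile normalization, normexp correction with an offset of 50, testing all probes or those well above background on every array, the authors' table, a block for slide, scan day, or replicate number, separate fits of the groups compared, leaving out each array, the unequal-variance test of the methods, no limit on the fold, and, as chosen after seeing the data, a liver covariate, leaving out 5 arrays, and differences within slides. Slide and scan time coincided on 3 slides, over 2 scan days.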

Additional observations from a re-analysis of the deposited data

Results flagged for a closer look

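The highest array of a group stood apart from the other 3 by Dixon's gap test at 95% in 2 of the 45 combinations of gene and group, and chance flags about 1 in 20 such groups. Both were NTL 2. Tnfrsf17 was at 2.11 on NTL 2, while the nearest of the other NTL arrays was at 0.27, and Xbp1 was at 6.65, while the nearest was at 5.94. Without NTL 2 the change in NTL was 2.47 for Tnfrsf17 and 0.65 for Xbp1.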

How the results depend on the processing

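Of the 21 calls in the comparisons with control and between lengths, 14 were lost under no alternative that was run, among them all those of Igj and Derl3. The call of Irf4 between LFA and SFA was lost most often, under 19 alternatives, followed by Prdm1 in LFA with 11 and Pou2af1 in NTL with 7. Fitted with only the groups compared, 3 of the 9 genes were called in LFA. Of all tested probes, 398 were then called higher, against 816 in the main setting. With a single array left out, 3 to 6 genes were called in LFA, the lowest count without control replicate 1, control replicate 4, or LFA replicate 4. Without these arrays in turn, 410, 521, and 384 of all tested probes were called higher in LFA. The Sdc1 difference between NTL and NTS ran from −0.33 to 0.68 with a single array left out. That between LFA and NTL ran from −0.020 to 0.25, and was −0.23 with slide as a block. The cause of these changes was not tested. Another 28 uncalled changes in the remaining comparisons were given no value in the text, and 12 of them turned sign under some alternative while 0 became called.

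With the replicate number as a block, Prdm1 in LFA (1.45, adjusted p by limma 0.0568) and Irf4 between LFA and SFA (1.16, 0.0673) were not called, which left 4 and 2 called genes, and no other call changed. Over all probes, 678 were then called higher in LFA and 283 between LFA and SFA, against 816 and 379 in the main setting. Deviations of arrays with equal numbers correlated between −0.68 and 0.69 over 40 pairs, with a median of −0.09, against −0.01 over 120 pairs with other numbers. These values gave no sign of pairing by number, but their spread is too wide to exclude it. The unequal-variance test of the methods gives a single p-value per probe over all groups, so it does not itself compare a group with control. It was adjusted among the probes with a 2-fold change in a comparison. By this test, 6 of the 9 genes were called in LFA, 7 in NTL, and 0 in SFA and NTS. Of the probes with a 2-fold change, it called 2186 of 7565 in LFA and 2984 of 6501 in NTL. In SFA it called 87 of 1830 and in NTS 103 of 2012. Over all probes, quantile normalization gave 983 higher and 312 lower calls in LFA against 816 and 646 in the main setting, and 1557 and 598 in NTL against 1344 and 1167.

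With 4 mice per group the SE of a change was 0.25 to 0.64 (log2), and changes under 2-fold could not be called by the rule used.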
